A study of Mus musculus with 24 samples.

Results

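Collagen transcripts were followed in mouse hearts that carried a human transgene for a beta1-adrenergic receptor or for an adenylyl cyclase. Members were all probe sets annotated to exactly 1 gene symbol made of Col, a number, the letter a and a number, and they came to 82 of 45037 probe sets tested and 42 of 18193 genes. They were grouped by protein form: 11 fibrillar genes (21 probe sets), 8 basement membrane genes (15 probe sets, types IV, XV and XVIII) and 23 other genes (46 probe sets). The collagen genes Col6a6 and Col28a1 were not analysed here.

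RNA came from whole hearts at 90 days of age, with 6 hearts from each of 4 genotypes, which the labels call biological replicates. NTG mice carried no transgene. ARG and GLY mice carried a human cDNA of the Arg389 or the Gly389 form of the beta1-adrenergic receptor, the receptor through which adrenaline and noradrenaline drive the heart muscle. AC5 mice carried a human cDNA of type 5 adenylyl cyclase, an enzyme that makes cyclic AMP downstream of that receptor. All 3 transgenes ran from the alpha-myosin heavy chain promoter, which is active in cardiac muscle cells, while most heart collagen is made by fibroblasts. Strain, sex and founder line were not given in the sources used here.

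Collagens are proteins of 3 chains wound into a helix, and they bear most of the tension in the matrix between heart cells. Types I and III form the thick and thin fibrils of the heart, with type V at their core, where it limits fibril width. Type IV builds the sheet-like network of basement membranes around muscle cells and capillaries, and types XV and XVIII tie that sheet to its surroundings. The remaining types bind to fibrils, form beaded filaments or hexagonal nets, or span cell membranes. Excess fibrillar collagen between muscle cells is what pathologists call cardiac fibrosis.

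The deposited value of a probe set in a heart is a linear ratio that centred near 1 in NTG hearts. Such a ratio holds no signal level, so levels of different collagens cannot be set against each other, and whether a cell type's defining markers were present or absent could not be judged. Differences are given on the log2 scale with their SE from the limma fit, with 6 hearts per genotype. That SE pools the spread of all genotypes in the fit, so a probe set has the same SE in each comparison. "Rose" and "fell" are used where limma gave a Benjamini-Hochberg adjusted p under 0.05 over all probe sets tested. In whole hearts, fewer or more cells of a type and less or more RNA per cell cannot be told apart. For a gene with several probe sets, 1 chosen without regard to its values stands for the gene unless another is named. The labels name no batch. In the NTG hearts the mean of replicates 1 to 3 lay within 0.02 of a ratio of 1 at 49.0% of probe sets, and that of replicates 4 to 6 at 42.6%. The other 18 triplets of NTG hearts gave at most 36.1%, so counts, medians and some values within replicates 1 to 3 and within 4 to 6 are given beside those over all hearts.

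Promoter sequence is shown for 3 of the collagen genes that rose most in ARG hearts and that had a window in the RefSeq table used (GRCm38.p6), because they encode chains of types I, III and VIII. Of the 42 genes, 33 had such a window. Each line gives the 150 bases before the annotated start, 5′ to 3′ on the strand of the gene, and the capitals mark 1 motif. Capitals mark CCAAT in Col1a2 at chr6:4505468-4505617 on the plus strand. In Col3a1 at chr1:45311388-45311537 on the plus strand they mark TATAAA. In Col8a1 at chr16:57754738-57754887 on the minus strand they mark CCGCCC, the GC box core GGGCGG read on the other strand. None of the 3 motifs overlaps another in these lines.
Col1a2: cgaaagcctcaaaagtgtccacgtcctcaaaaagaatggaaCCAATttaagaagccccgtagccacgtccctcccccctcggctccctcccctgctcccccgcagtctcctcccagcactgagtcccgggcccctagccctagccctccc
Col3a1: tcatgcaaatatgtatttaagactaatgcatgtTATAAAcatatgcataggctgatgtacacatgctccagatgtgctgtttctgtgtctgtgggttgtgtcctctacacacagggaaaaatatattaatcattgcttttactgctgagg
Col8a1: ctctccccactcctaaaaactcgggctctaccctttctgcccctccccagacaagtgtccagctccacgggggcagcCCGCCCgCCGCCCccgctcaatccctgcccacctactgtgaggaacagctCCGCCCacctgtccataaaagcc

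The motif began 109 bases before the start in Col1a2 and 117 bases before it in Col3a1, and the 3 matches in Col8a1 began 73, 66 and 23 bases before it. These motifs were searched on both strands of the 250 bases before each start. GGGCGG was in 21 of 36 collagen windows (58.3%) and in 32.7% of all 32851 windows. CCAAT was in 36.1% of collagen windows and 33.8% of all, and TATAAA in 13.9% and 12.4%. A match describes letters only. In the genome order of protein-coding genes, 7 pairs of collagen members were neighbours, among them Col3a1 with Col5a2 and Col6a2 with Col6a1, both described below.

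The first comparison asked how collagen transcripts differed between ARG and NTG hearts. The major fibrillar collagens and several collagens that attach to or lie between fibrils rose in ARG hearts. Of 82 collagen probe sets 15 rose (18.3%), against 4.04% of all probe sets, and 1 fell, against 5.63% of all. By gene, 10 of 42 rose: Col1a1, Col1a2, Col3a1, Col5a2, Col6a2, Col6a3, Col8a1, Col8a2, Col14a1 and Col16a1. Over all genes 6.11% had a probe set that rose. At 9 collagen probe sets every ARG heart lay above every NTG heart, which 2.32% of all probe sets did. At 2, of Col4a4 and Col20a1, every ARG heart lay below every NTG heart, as at 3.79% of all.

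By class, counts were small. Among fibrillar genes 4 of 11 rose, with a median difference of 0.25 over the class, beside a median of -0.01 over all genes. In the basement membrane class 0 of 8 genes rose by limma, 1 of its 15 probe sets passed upward at an unadjusted p under 0.05 beside 9.3% of all, and the class median was 0.04. With 6.11% of all genes rising, a count of 0 in 8 genes is near that background. Of the 23 other genes 6 rose, with a class median of -0.01. The 31 genes with no call in either direction ranged from -0.22 (Col22a1) to 0.40 (Col6a1). The difference between classes was not tested.

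**Figure D1:**
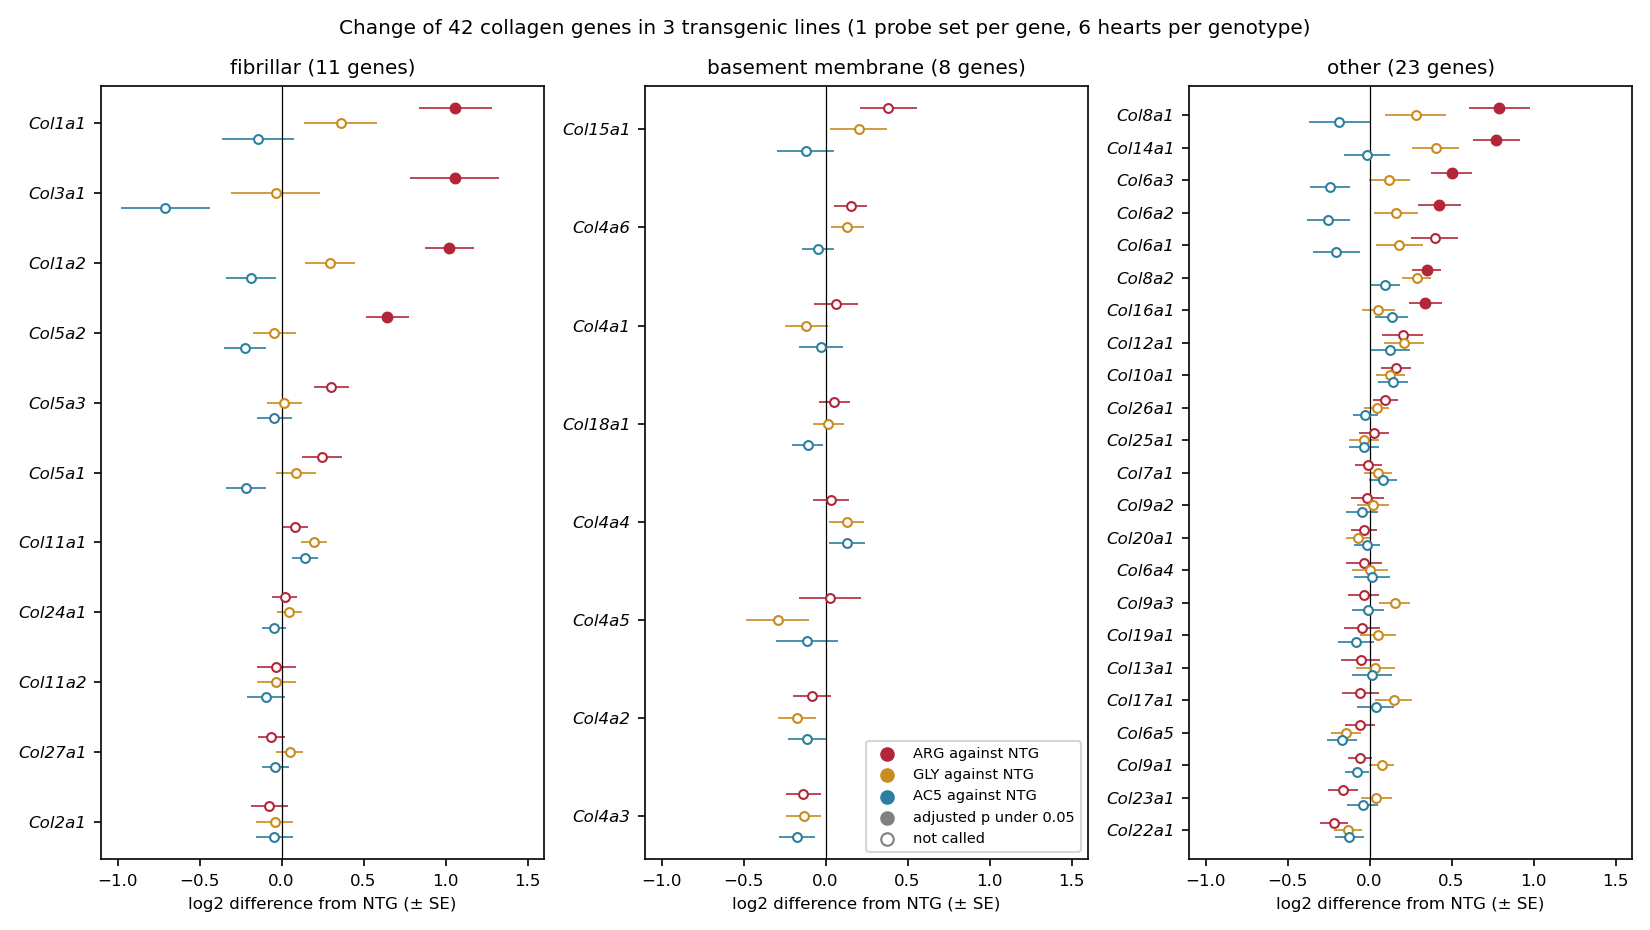
Log2 difference from NTG (x axis, mean difference ± SE, n = 6 hearts per genotype) of each of 42 collagen genes, in panels for fibrillar, basement membrane and other collagens, with ARG in red, GLY in ochre and AC5 in blue. Filled points have an adjusted p under 0.05. The filled points are all from ARG, and they lie at 4 fibrillar genes (0.64 to 1.06) and 6 other genes (0.34 to 0.79).

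Type I collagen, the main tensile fibril of the heart, is made of 2 chains from Col1a1 and 1 from Col1a2. The Col1a1 ratio ran from 0.707 to 1.21 in NTG hearts (median 0.896) and from 1.14 to 3.44 in ARG hearts (median 1.68). It ran from 0.785 to 1.80 in GLY (median 1.20) and from 0.718 to 0.982 in AC5 (median 0.787). ARG hearts were the highest group, and 4 of 6 lay above every NTG heart. Col1a1 rose by 1.06 ± 0.22 in ARG against NTG (limma, adjusted p = 0.00181), a 2.09-fold difference, and by 0.89 ± 0.18 at its second probe set (adjusted p = 0.00115).

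Col1a2 encodes the partner chain of type I collagen. Its ratio lay between 0.798 and 1.10 in NTG hearts (median 0.857) and between 1.33 and 2.74 in ARG hearts (median 1.70). GLY hearts lay between 0.901 and 1.40 (median 1.05) and AC5 hearts between 0.572 and 0.954 (median 0.813). Every ARG heart was above every NTG heart. The rise was 1.02 ± 0.15 (limma, adjusted p = 3.61e-05), and a second probe set rose by 0.79 ± 0.17. The remaining Col1a2 probe set, 1446326_at, differed by 0.01 ± 0.11 and was not called.

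Type III collagen, encoded by Col3a1, forms thinner and more extensible fibrils alongside type I. In NTG hearts the Col3a1 ratio was 0.673 to 1.03 (median 0.745), and in ARG hearts 0.855 to 3.56 (median 1.74). The GLY range was 0.450 to 1.58 (median 0.753) and the AC5 range 0.301 to 0.687 (median 0.524). Of 6 ARG hearts 5 were above every NTG heart, and ARG replicate 3 was within the NTG range. The difference of 1.06 ± 0.27 was called by limma (adjusted p = 0.0108). At its other probe set, 1427883_a_at, the rise was 0.93 ± 0.17 (adjusted p = 0.000359), and there every ARG heart exceeded every NTG heart.

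**Figure D2:**
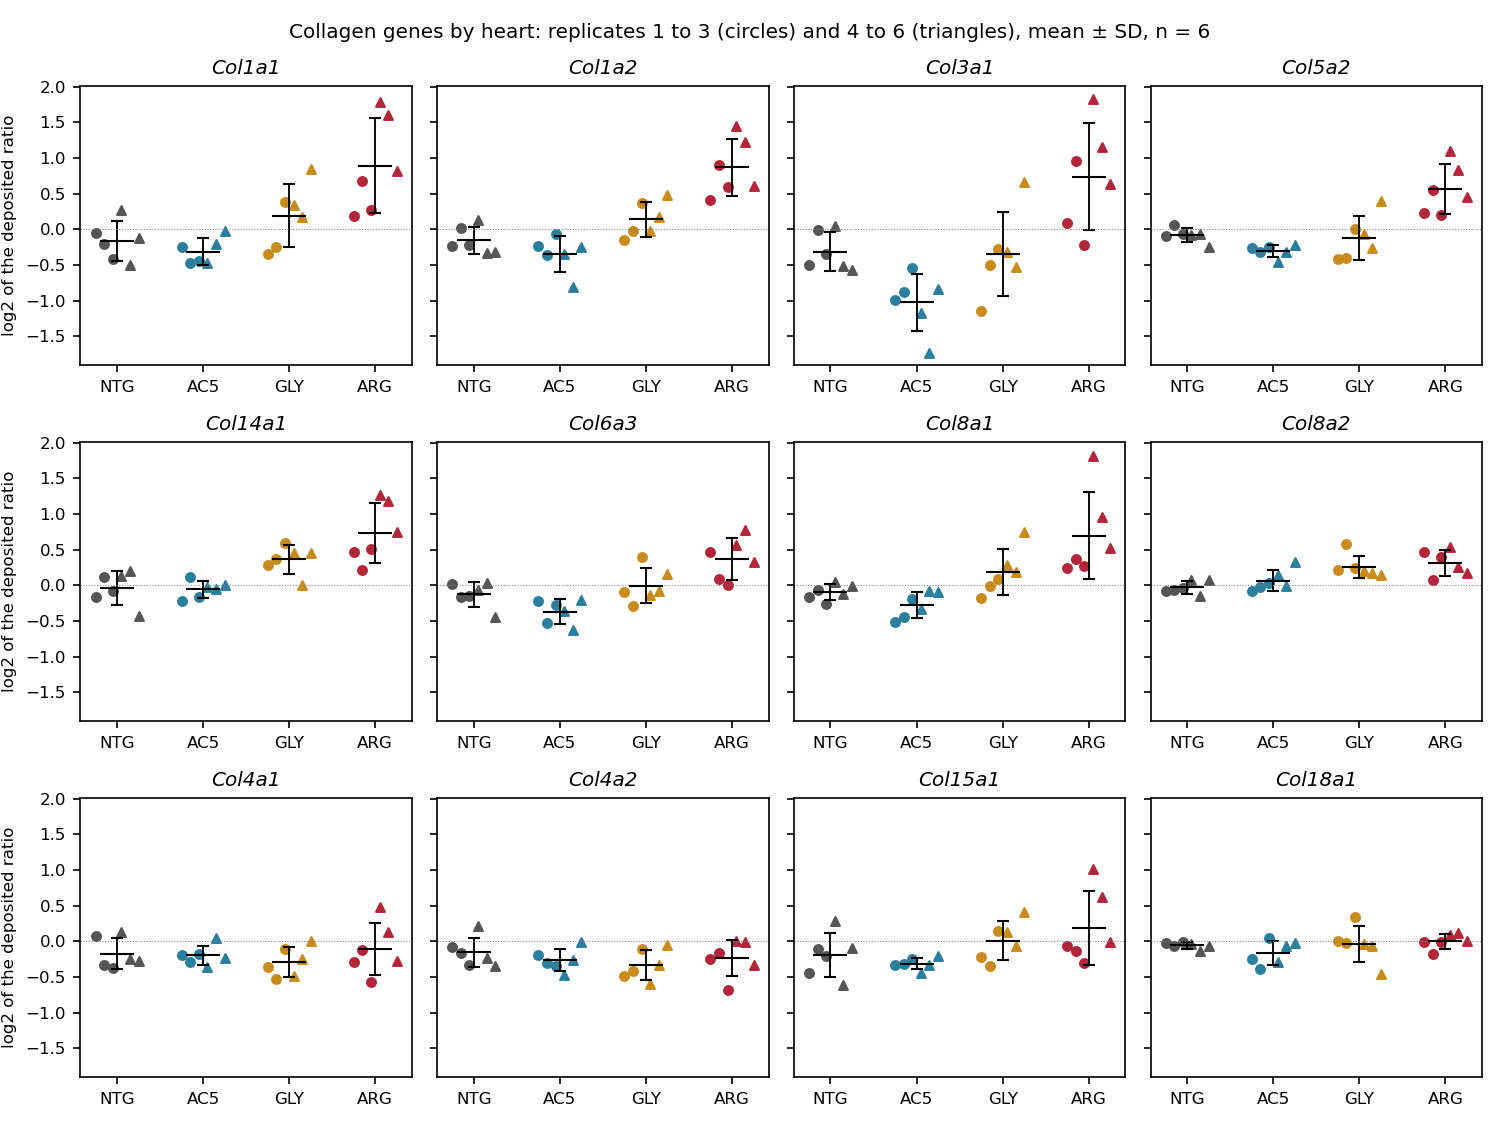
Log2 of the deposited ratio (y axis) in each heart for 12 collagen genes, by genotype (x axis), with circles for replicates 1 to 3, triangles for replicates 4 to 6, and the mean ± SD of 6 hearts in black. In the upper row the ARG hearts of Col1a2 and Col5a2 lie above all NTG hearts, and in the lowest row the ARG and NTG hearts of 4 basement membrane genes overlap.

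Type V collagen joins type I in mixed fibrils. Col5a2, which encodes one of its chains and is the neighbour of Col3a1, ran from 0.843 to 1.05 in NTG (median 0.948) and from 1.15 to 2.14 in ARG (median 1.42). It was 0.752 to 1.31 in GLY (median 0.894) and 0.725 to 0.862 in AC5 (median 0.818). The ARG and NTG hearts did not overlap, and the rise was 0.64 ± 0.13 (limma, adjusted p = 0.00132). Its second probe set, 1450625_at, differed by 0.54 ± 0.21 and was not called (adjusted p = 0.118). That probe set was called without GLY replicate 6 (adjusted p = 0.0339) or ARG replicate 1 (adjusted p = 0.0465).

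The other type V chains were not called in the main fit. Col5a1 differed by 0.25 ± 0.12 (adjusted p = 0.251) and Col5a3 by 0.30 ± 0.11 (adjusted p = 0.0716). A probe set of each was called as higher with array weights and without the arrays of low weight. For Col5a3 this was also so after quantile normalization, without ARG replicate 1 or 3, and within replicates 4 to 6. For Col5a1 it was also so without GLY replicate 3. Fibrillar collagens best known from cartilage lay close to 0, with Col2a1 at -0.07, Col11a1 at 0.08 and Col11a2 at -0.03. The fibrillar genes Col24a1 and Col27a1 were at 0.02 and -0.06. The ARG calls in the fibrillar class were thus at Col1a1, Col1a2, Col3a1 and Col5a2, of types I, III and V.

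No basement membrane collagen rose in ARG hearts, and Col4a1, Col4a2 and Col18a1 were near the NTG value. Col4a1 and Col4a2 encode the chains of the most widespread type IV network, and their annotated starts lie 21 bases apart. The Col4a1 ratio was 0.773 to 1.09 in NTG (median 0.835) and 0.671 to 1.39 in ARG (median 0.873), so the groups overlapped. Its difference was 0.06 ± 0.13 and that of Col4a2 was -0.08 ± 0.12, neither called. Col18a1, whose protein is cut to release endostatin, differed by 0.05 ± 0.09.

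Col15a1, a basement membrane collagen known from muscle and capillaries, had the highest value of the class at 0.38 ± 0.17 and was not called (adjusted p = 0.204). Its ratio ran from 0.656 to 1.22 in NTG hearts and from 0.809 to 2.03 in ARG hearts. Only ARG replicates 4 and 5 lay above every NTG heart, as 2 of 6. Among the chains of specialised basement membranes, Col4a3 was at -0.14, Col4a5 at 0.03 and Col4a6 at 0.15.

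Col4a4, a chain best known from the kidney filter, fell at 1 of 3 probe sets. At 1445328_at the ratio was 0.821 to 1.01 in NTG (median 0.897) and 0.622 to 0.799 in ARG (median 0.710), without overlap. GLY hearts ran from 0.593 to 0.858 (median 0.673) and AC5 hearts from 0.494 to 0.771 (median 0.737). The fall was -0.35 ± 0.10 in ARG (limma, adjusted p = 0.0263), while the probe set that stands for the gene was at 0.03 ± 0.11 and the remaining one at -0.13 ± 0.15. After quantile normalization of the arrays the difference was -0.20 and no longer called (adjusted p = 0.389). The call also ended without NTG replicate 2 or 5 or ARG replicate 3, 4 or 6, at adjusted p of 0.0524 to 0.0714.

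Type VI collagen forms beaded filaments that link cells to the fibrils around them. Col6a3, its largest chain, ran from 0.736 to 1.02 in NTG (median 0.928) and from 1.00 to 1.71 in ARG (median 1.32). It was 0.819 to 1.32 in GLY (median 0.942) and 0.646 to 0.868 in AC5 (median 0.801). Of 6 ARG hearts 5 were above every NTG heart. Col6a3 rose by 0.50 ± 0.12 in ARG (limma, adjusted p = 0.0078).

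Col6a2, another chain of the same protein, was 0.812 to 1.05 in NTG hearts (median 0.990) and 1.11 to 1.72 in ARG hearts (median 1.24), without overlap. GLY hearts were at 0.839 to 1.62 (median 1.03) and AC5 hearts at 0.613 to 0.928 (median 0.827). The rise was 0.43 ± 0.13 (limma, adjusted p = 0.0398), and that at its second probe set was 0.39 ± 0.13 (adjusted p = 0.0493). The first call ended after quantile normalization (0.35, adjusted p = 0.079). It also ended without NTG replicate 1, 3, 5 or 6 or ARG replicate 2, 4 or 5, at adjusted p of 0.0531 to 0.121. The second probe set lost its call without any of 16 of the 24 hearts, at adjusted p of 0.0507 (without ARG replicate 6) to 0.156 (without ARG replicate 5). Col6a1, the neighbouring gene of another chain, differed by 0.40 ± 0.14 and was not called (adjusted p = 0.086). Col6a1 was called as higher with array weights, without the arrays of low weight and without ARG replicate 1 or 3. Within replicates 4 to 6 it was called too. The type VI genes Col6a4 and Col6a5 were at -0.03 and -0.06.

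Type VIII collagen forms hexagonal nets in vessel walls and under endothelia. Col8a1 was 0.837 to 1.04 in NTG hearts (median 0.936) and 1.18 to 3.53 in ARG hearts (median 1.36). In GLY it was 0.881 to 1.67 (median 1.10) and in AC5 0.702 to 0.942 (median 0.833). All ARG hearts were above all NTG hearts, and ARG replicate 4 was far above the other 5, of which the next was at 1.94. Col8a1 rose by 0.79 ± 0.19 (limma, adjusted p = 0.00536), while its other probe sets, not called, were at 0.35 ± 0.24 and 0.21 ± 0.20.

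Col8a2, the partner chain, was 0.898 to 1.05 in NTG (median 0.966) and 1.05 to 1.45 in ARG (median 1.26). It was 1.11 to 1.49 in GLY (median 1.15) and 0.942 to 1.25 in AC5 (median 1.01). Of 6 ARG hearts 5 exceeded every NTG heart, and the rise was 0.35 ± 0.09 (limma, adjusted p = 0.0102). Col10a1, a related short chain collagen of growth cartilage, was at 0.16 ± 0.09 and not called.

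Fibril-associated collagens bind the surface of fibrils without forming any themselves. Col14a1 was 0.743 to 1.14 in NTG (median 1.01) and 1.17 to 2.40 in ARG (median 1.55). It was 1.00 to 1.51 in GLY (median 1.33) and 0.855 to 1.08 in AC5 (median 0.975). ARG and NTG hearts did not overlap. Col14a1 rose by 0.77 ± 0.14 (limma, adjusted p = 0.00048) and by 0.84 ± 0.15 at 1427168_a_at, with its remaining probe set at 0.26 ± 0.18 and not called.

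Col16a1, a second fibril-associated collagen, was 0.855 to 1.02 in NTG (median 0.966) and 0.915 to 1.54 in ARG (median 1.22). It was 0.806 to 1.11 in GLY (median 1.02) and 0.937 to 1.25 in AC5 (median 1.02). Of 6 ARG hearts 5 were above every NTG heart. The rise of 0.34 ± 0.10 (limma, adjusted p = 0.028) fell short of the threshold after quantile normalization (0.32, adjusted p = 0.0519). It also did so without NTG replicate 3 or 6 or ARG replicate 4 or 5, at adjusted p of 0.0573 to 0.0937. The remaining 7 of 9 fibril-associated genes were not called, with Col12a1 at 0.20 ± 0.12 and Col22a1 at -0.22 ± 0.09. A Col22a1 probe set was called as lower with array weights, without the arrays of low weight and with ARG and NTG alone. This was also so without NTG replicate 1 or GLY replicate 5, and within replicates 4 to 6. A Col12a1 probe set was called as higher with array weights, without ARG replicate 4, and without ARG replicates 4 and 5. None of the 4 transmembrane collagens (Col13a1, Col17a1, Col23a1, Col25a1), Col7a1 of anchoring fibrils or Col26a1 was called, and they ranged from -0.16 (Col23a1) to 0.09 (Col26a1).

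ARG hearts differed among themselves more than NTG hearts did. The mean SD of the log2 ratio over collagen genes was 0.27 in ARG and 0.14 in NTG, and over all probe sets it was 0.19 and 0.14. In GLY it was 0.223 over collagen genes and 0.221 over all probe sets, the latter above that of ARG. In AC5 these values were 0.16 and 0.15. ARG replicate 4 was the highest ARG heart at 8 of the 10 genes that rose, and replicate 5 at Col6a2 and Col6a3. Replicates 4 and 5 were the highest pair at 9 of the 10. The lowest ARG heart was always among replicates 1 to 3. Without replicates 4 and 5, an alternative chosen after seeing the data, 10 collagen probe sets rose in place of 15. The share of all probe sets that rose in that setting is not given here, so the drop is not particular to collagens. At the probe sets that stand for the genes, Col1a1, Col1a2, Col5a2, Col8a1 and Col14a1 were still called. Col3a1 (0.68, adjusted p = 0.137), Col6a2 (0.29, adjusted p = 0.272), Col6a3 (0.35, adjusted p = 0.103), Col8a2 (0.31, adjusted p = 0.0618) and Col16a1 (0.23, adjusted p = 0.214) were not. Col3a1 was still called at its other probe set.

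Within each set of replicates all 10 genes had ARG above NTG. The median difference of these genes was 0.41 within replicates 1 to 3 (range 0.24 to 0.78) and 1.02 within replicates 4 to 6 (range 0.32 to 1.55). These genes were chosen by their calls on the same hearts, and over all 42 collagen genes the medians were 0.09 and 0.03. Col1a1 differed by 0.61 ± 0.18 within replicates 1 to 3 and by 1.51 ± 0.24 within replicates 4 to 6. For Col3a1 the values were 0.56 ± 0.27 and 1.55 ± 0.32. With 3 hearts per genotype, limma called 1 collagen probe set within replicates 1 to 3, of Col1a2 (0.78 ± 0.16, adjusted p = 0.0138), where 0.728% of all probe sets rose. It called 14 as higher within replicates 4 to 6, where 3.04% of all rose. Whether the sets themselves differ in these differences was not tested.

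**Figure D3:**
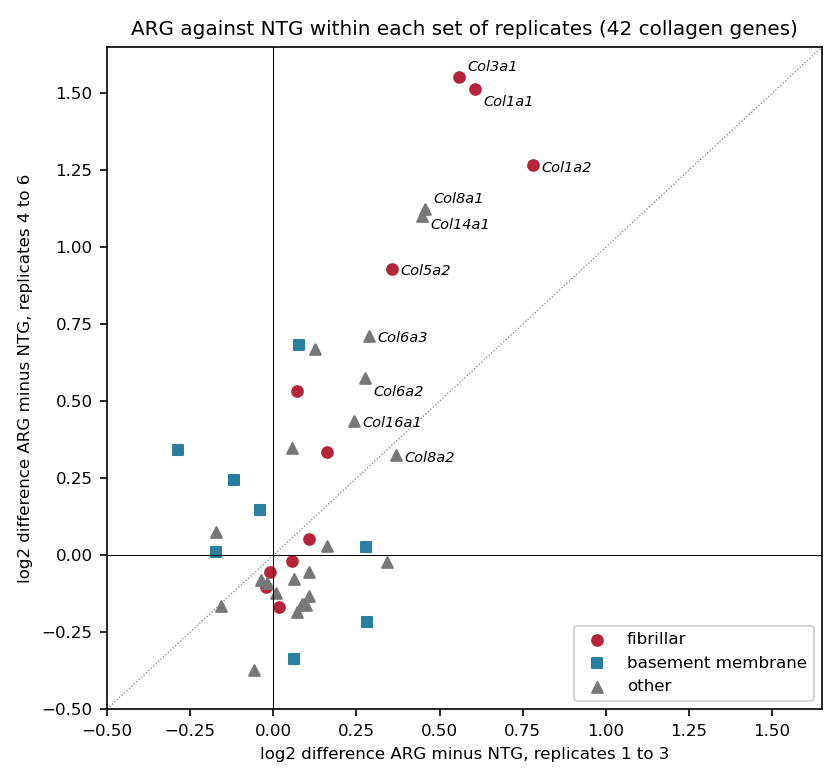
Log2 difference ARG minus NTG within replicates 1 to 3 (x axis) and within replicates 4 to 6 (y axis) for each of 42 collagen genes, coloured by class, with the 10 genes that rose over all hearts named. All 10 named genes lie above 0 on both axes, and 9 of them lie above the dotted line of equal differences, with Col8a2 below it.

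The same spread was seen when a class was summarised in each heart. The median log2 ratio over fibrillar genes ran from -0.20 to -0.04 in NTG hearts and from 0.02 to 0.40 in ARG hearts, without overlap. Over basement membrane genes it ran from -0.16 to 0.11 in NTG and from -0.23 to 0.13 in ARG, with full overlap. The other collagens gave -0.06 to 0.05 in NTG and -0.09 to 0.20 in ARG. ARG replicate 4, the highest heart for the fibrillar class, was the lowest ARG heart for the other collagens.

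**Figure D4:**
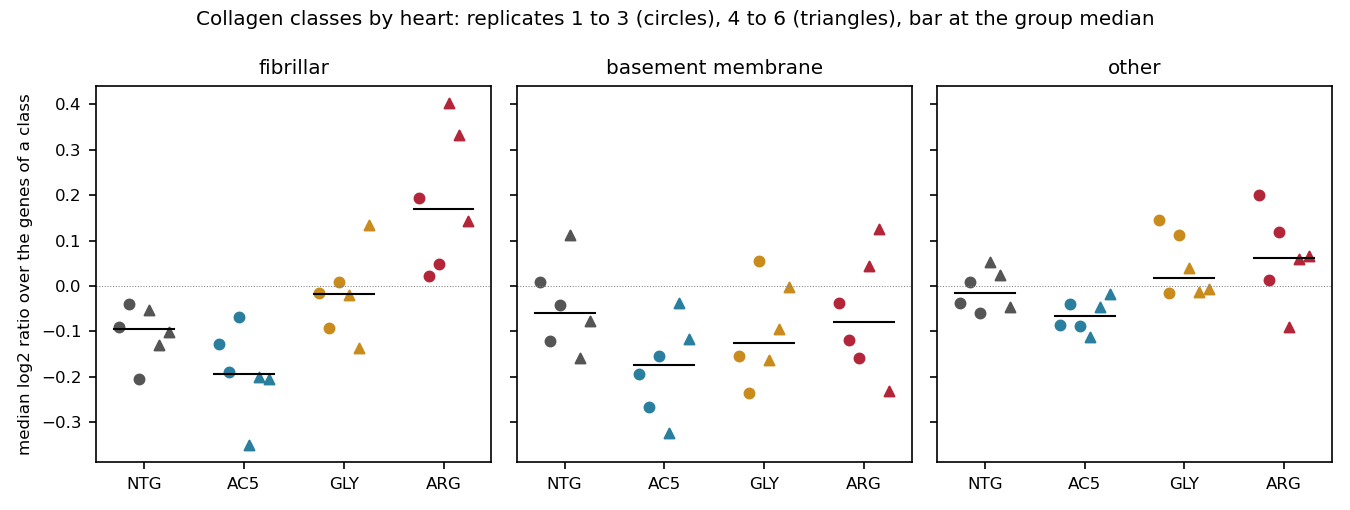
Median log2 ratio over the genes of a class (y axis) in each heart by genotype (x axis), with circles for replicates 1 to 3, triangles for replicates 4 to 6 and a bar at the median of 6 hearts. Fibrillar medians of ARG hearts lie at 0.02 to 0.40, above those of NTG hearts, and basement membrane medians of all 4 genotypes overlap.

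The second comparison set GLY hearts against the same NTG hearts, which all comparisons with NTG share. No collagen probe set rose by limma, against 1.55% of all probe sets, with 7 of 82 passing upward at an unadjusted p under 0.05 and 8.96% of all doing so. The class medians were 0.05 for fibrillar, -0.05 for basement membrane and 0.05 for other collagens, beside 0.02 over all genes. The largest upward differences were 0.40 ± 0.14 for Col14a1 (adjusted p = 0.101), 0.36 ± 0.22 for Col1a1 (adjusted p = 0.406) and 0.29 ± 0.15 for Col1a2 (adjusted p = 0.295). The lowest was -0.29 for Col4a5, not called. A Col4a5 probe set was called as lower with the replicate block and without GLY replicate 6 or ARG replicate 1. At 1 collagen probe set, that of Col8a2, every GLY heart was above every NTG heart, as at 1.07% of all probe sets, with a difference of 0.29 ± 0.09 that missed the threshold (adjusted p = 0.0561). It passed without AC5 replicate 6, GLY replicate 6, ARG replicate 2 or ARG replicate 4, at adjusted p of 0.0378 to 0.0483.

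Of the 10 genes that rose in ARG, 8 had the GLY mean between the ARG and NTG means, the exceptions being Col3a1 and Col5a2. These genes were chosen by their ARG calls against the same NTG hearts. Of all genes, 56.8% had GLY above NTG, which is a looser condition than GLY between the ARG and NTG means. GLY replicate 6 was the highest GLY heart at 6 of the 10. The Col4a4 probe set 1445328_at fell in GLY by -0.38 ± 0.10 (limma, adjusted p = 0.0276), where 3.53% of all probe sets fell, and its GLY and NTG hearts overlapped. That call ended after quantile normalization (-0.20, adjusted p = 0.49). It also ended without NTG replicate 2 or 5 or GLY replicate 1, 2 or 4, at adjusted p of 0.0534 to 0.0704.

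The receptor forms were compared directly as ARG against GLY. Some collagen genes of types I, III and V, namely Col1a2, Col3a1 and Col5a2, were higher in ARG. By limma 6 of 82 probe sets rose (7.32%), against 0.793% of all probe sets, and none fell, where 0.713% of all fell and 1 collagen probe set passed downward at an unadjusted p under 0.05, beside 7.29% of all. Fibrillar genes gave 5 of the 6, at Col1a2, Col3a1 and Col5a2, and their class median was 0.16, beside 0.07 for basement membrane genes, 0.03 for the others and -0.03 over all genes.

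Col5a2 rose in ARG against GLY by 0.69 ± 0.13 (limma, adjusted p = 0.00505), with 4 of 6 ARG hearts above every GLY heart. Col1a2 rose by 0.73 ± 0.15 (adjusted p = 0.00994), with 5 of 6 ARG hearts above every GLY heart. Col3a1 rose by 1.09 ± 0.27 (adjusted p = 0.0362), and by 0.73 ± 0.17 at its other probe set (adjusted p = 0.0195). The first call ended without GLY replicate 1, 2, 3, 4 or 5 or ARG replicate 2, 4, 5 or 6, at adjusted p of 0.0547 to 0.116. The second ended without GLY replicate 1 or 2 or ARG replicate 4 or 5, at adjusted p of 0.0545 to 0.0656. The Col5a2 probe set 1450625_at lost its call without GLY replicate 1, 2, 3 or 5 or ARG replicate 2, 4 or 5, at adjusted p of 0.0532 to 0.094. Col1a1 differed by 0.70 ± 0.22 and was not called (adjusted p = 0.124). Without GLY replicate 6 (adjusted p = 0.0316) or ARG replicate 1 (adjusted p = 0.0387) it was. At Col14a1 the rise of 0.57 ± 0.15 was at 1 of 3 probe sets, 1427168_a_at (adjusted p = 0.049), while the probe set that stands for the gene was at 0.37 ± 0.14 and not called (adjusted p = 0.224). That call ended with the replicate block (adjusted p = 0.0557) and without any of 18 of the 24 hearts, at adjusted p of 0.0539 (without NTG replicate 4) to 0.147 (without ARG replicate 4). No collagen probe set had all ARG hearts above all GLY hearts, as 0.262% of all probe sets had.

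These calls rested on the fit more than those of ARG against NTG did. No collagen probe set was called in ARG against GLY after quantile normalization, where 0.0777% of all rose. None was called when these genotypes alone entered the fit, or without ARG replicates 4 and 5. The shares of all probe sets called in those settings are not given here. A general loss of calls thus cannot be told apart from one at collagens. The count was 2 without GLY replicate 1, GLY replicate 2, ARG replicate 4 or ARG replicate 5, and 3 without GLY replicate 5 or ARG replicate 2. Col1a2 and Col5a2 at their standing probe sets kept the call without any single heart. Within the sets the median difference of the 10 genes was 0.27 in replicates 1 to 3, with 7 of 10 above 0, and 0.72 in replicates 4 to 6, with all 10 above 0. Over all 42 collagen genes the medians were 0.01 and 0.06.

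No collagen was called in AC5 hearts, and most genes had a mean below that of NTG. By limma 0 of 82 probe sets were called, against 0.0688% of all that rose and 0.0733% that fell, and at an unadjusted p under 0.05 there were 0 upward and 5 downward, beside 3.39% and 3.87% of all probe sets. The differences of 32 of 42 genes were below 0, as were 10 of 11 in the fibrillar class and 7 of 8 in the basement membrane class, while 53.5% of all genes lay below 0. Class medians were -0.10, -0.11 and -0.03 for fibrillar, basement membrane and other collagens. Col3a1 had the lowest value at -0.71 ± 0.27 (adjusted p = 0.477), with 5 of 6 AC5 hearts below every NTG heart. At the Col4a4 probe set 1445328_at the difference was -0.38 ± 0.10 (adjusted p = 0.172), and every AC5 heart was below every NTG heart, as at 0.733% of all probe sets. It was called with array weights (-0.37, adjusted p = 0.0272). With AC5 and NTG alone in the fit Col3a1 was called (adjusted p = 0.048), as was the Col5a2 probe set 1450625_at (-0.47, adjusted p = 0.0277).

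The widest gaps were between ARG and AC5. Against AC5, 17 of 82 collagen probe sets rose in ARG (20.7%), beside 2.52% of all probe sets, and 0 fell, where 2.41% of all fell. At an unadjusted p under 0.05, 1 passed downward, beside 7.78% of all. At 16 collagen probe sets every ARG heart lay above every AC5 heart, which 1.5% of all did. The 10 genes were Col1a1, Col1a2, Col3a1, Col5a1, Col5a2, Col6a1, Col6a2, Col6a3, Col8a1 and Col14a1, and 0 basement membrane genes rose, with 2 of 15 probe sets passing upward at an unadjusted p under 0.05, beside 7.21% of all. Col3a1 rose by 1.76 ± 0.27 (limma, adjusted p = 0.000156), Col1a2 by 1.21 ± 0.15 (adjusted p = 1.23e-05) and Col1a1 by 1.20 ± 0.22 (adjusted p = 0.00106). Col5a1 rose by 0.47 ± 0.12 (adjusted p = 0.0209) and Col6a1 by 0.60 ± 0.14 (adjusted p = 0.0116), neither of which was called against NTG. Of the 10 genes that rose against NTG, 8 had AC5 as the lowest of the 4 genotype means. Those genes were chosen by their ARG calls. Of all genes, 53.5% had AC5 below NTG, which is a looser condition than AC5 as the lowest of 4 means.

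GLY against AC5 gave 0 called collagen probe sets by limma, where 0.255% of all probe sets rose and 0.437% fell. At an unadjusted p under 0.05, 18 were higher and 1 lower in GLY, or 8 and 0 among the 21 fibrillar probe sets, beside 6.18% and 5.6% of all probe sets. All 11 fibrillar genes were above 0, from 0.00 (Col2a1) to 0.67 ± 0.27 (Col3a1, adjusted p = 0.307), while 56.8% of all genes were above 0.

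Genes that build, join, bind and break down collagen were read from 7 lists chosen with earlier results known, of which values are given for the largest called changes. Each list gene was read at 1 probe set, while the shares given for all genes count a call at any probe set of a gene. In ARG against NTG, 4 of 19 genes of collagen folding and modification rose and 2 fell, with a median of 0.07. P3h2, a prolyl 3-hydroxylase, rose by 0.90 ± 0.15 (limma, adjusted p = 0.000192). Serpinh1, the collagen chaperone HSP47, rose by 0.72 ± 0.14 (adjusted p = 0.00101). P3h4, a partner of the lysyl hydroxylases, fell by 0.60 ± 0.10, and Colgalt2, which adds galactose to collagen, fell by 0.47 ± 0.09.

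Of 11 genes of propeptide cleavage and cross-linking 3 rose and 0 fell, with a median of 0.20. Pcolce, which speeds removal of the C-terminal propeptide of fibrillar collagen, rose by 0.67 ± 0.13 (limma, adjusted p = 0.000621). Lox, the lysyl oxidase that cross-links fibrils, rose by 0.63 ± 0.15 (adjusted p = 0.00438). Of 19 partners of collagen fibrils 6 rose and 0 fell, with a median of 0.24. Postn, the matricellular protein periostin, rose by 1.08 ± 0.24, and Tnc, tenascin C, by 0.91 ± 0.16 (adjusted p = 0.000259).

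Basement membrane partners went the other way in number. Of 16 genes 4 fell and 1 rose, with a median of -0.21. Lama2, the laminin chain of muscle basement membranes, fell by 0.62 ± 0.07 (limma, adjusted p = 1.1e-06), and Lamb1, another laminin chain, by 0.57 ± 0.11. Fbln1, fibulin 1, was the member that rose, by 0.69 ± 0.15 (adjusted p = 0.00216). Over all genes 6.11% had a probe set that rose and 9.78% one that fell.

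Of 18 genes of collagen breakdown and its inhibitors 4 rose and 2 fell, with a median of 0.07. The largest rises were of Timp1, a metalloproteinase inhibitor, at 2.85 ± 0.26 (limma, adjusted p = 5.02e-08), and of Ctss, the protease cathepsin S, at 1.45 ± 0.20. Timp4, a metalloproteinase inhibitor prominent in the heart, fell by 1.00 ± 0.25 and Reck, a membrane inhibitor of the same enzymes, by 0.40 ± 0.09. Of 10 receptors for collagen and matrix 2 rose, Cd44 by 2.31 ± 0.22 and Ddr2, a receptor kinase for fibrillar collagen, by 0.31 ± 0.08 (adjusted p = 0.0134). Among 25 growth factor and signalling genes of fibrosis 4 rose and 2 fell, with a median of 0.11. Ccn2, a matricellular growth factor, rose by 1.13 ± 0.24, and Tgfb3, a transforming growth factor beta, by 0.58 ± 0.13. Agtr1a, an angiotensin receptor, fell by 1.02 ± 0.13 (adjusted p = 5.14e-06) and Smad2, which relays the transforming growth factor signal, by 0.36 ± 0.10.

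**Figure D5:**
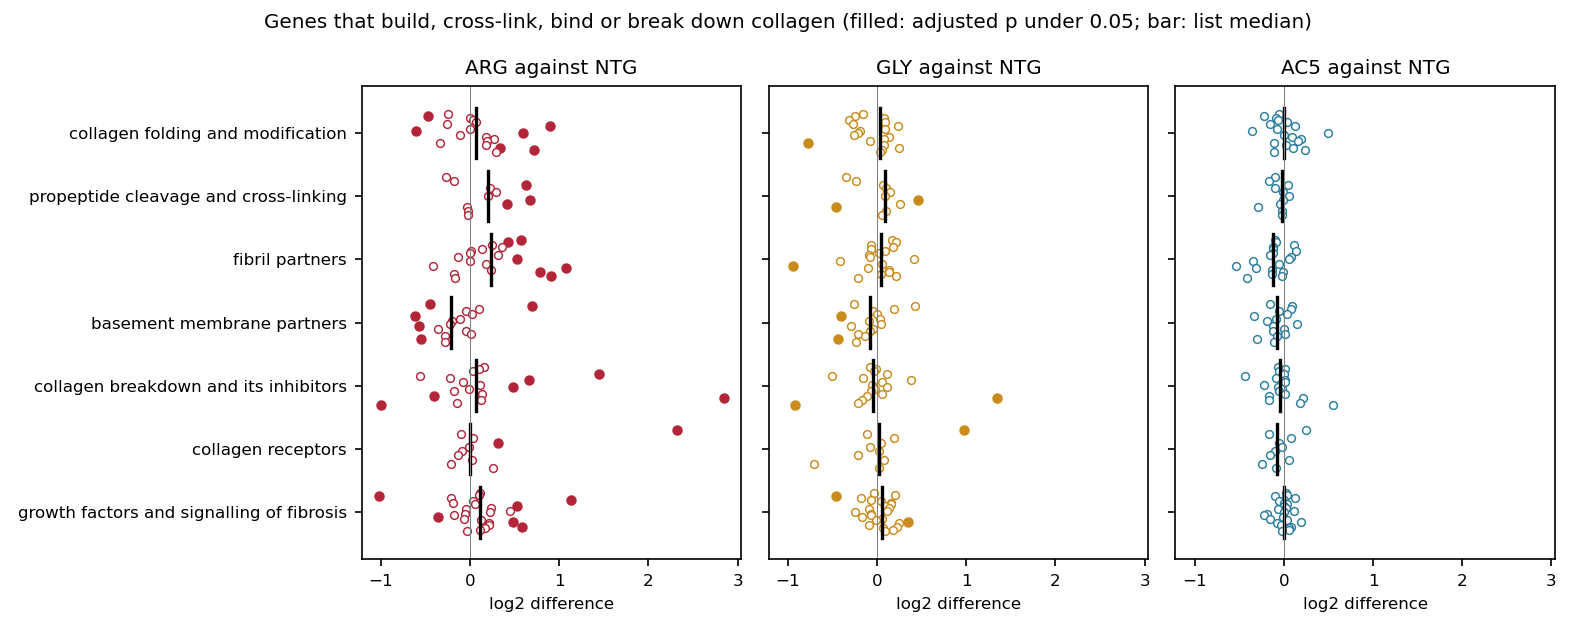
Log2 difference from NTG (x axis, same scale in each panel) of single genes in 7 lists of collagen folding, cross-linking, binding, breakdown, reception and signalling (y axis), for ARG, GLY and AC5. Filled points have an adjusted p under 0.05 and the black bar is the list median, which in ARG is highest for fibril partners (0.24) and lowest for basement membrane partners (-0.21).

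In GLY against NTG 4 of these 118 genes rose and 7 fell, while 2.35% of all genes had a probe set that rose and 6.33% one that fell. Timp1 rose by 1.35 ± 0.26 (limma, adjusted p = 0.00261), Cd44 by 0.98 ± 0.22 and Pcolce by 0.47 ± 0.13 (adjusted p = 0.0299). Ogn, osteoglycin, a small proteoglycan of fibrils, fell by 0.94 ± 0.27 and Plod2, a lysyl hydroxylase, by 0.77 ± 0.20. Lama2 fell in GLY too, by 0.41 ± 0.07 (adjusted p = 0.00116). No gene of the 7 lists was called in AC5 against NTG, where 0.0824% of all genes had a probe set that rose and 0.154% one that fell.

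Against GLY, 11 of the 118 list genes rose and 2 fell in ARG. ARG hearts had higher P4ha1, a prolyl 4-hydroxylase subunit (0.81 ± 0.13, limma, adjusted p = 0.000998), and higher Serpinh1 (0.66 ± 0.14). Over all genes 1.37% had a probe set that rose and 1.33% one that fell. Of the folding list 3 genes rose and 1 fell, and of the fibril partners 3 rose, led by Postn at 1.18 ± 0.24 (adjusted p = 0.00872) and Tnc at 0.70 ± 0.16. Lox rose by 0.56 ± 0.15 (adjusted p = 0.0486). Timp1 rose by 1.5 ± 0.26, Ctss by 1.33 ± 0.20, Cd44 by 1.34 ± 0.22 and Ccn2 by 1.20 ± 0.24. The 2 that fell were P3h4, by 0.41 ± 0.10 (adjusted p = 0.0273), and Agtr1a, by 0.56 ± 0.13 (adjusted p = 0.0224). No basement membrane partner was called in that comparison.

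Markers of cell types were read in the same hearts as the collagens. Of 12 macrophage markers 8 rose in ARG against NTG and 0 fell, with a median of 0.78. Their mean log2 ratio ran from -0.10 to 0.09 in NTG hearts and from 0.31 to 1.18 in ARG hearts, highest in ARG replicate 4. Of 10 fibroblast markers, which include Ddr2, 5 rose and 1 fell, with means of -0.10 to 0.03 in NTG hearts and 0.07 to 0.60 in ARG hearts, again highest in replicate 4. In GLY the highest heart for both lists was replicate 6, at 0.65 and 0.32, and replicate 6 was also the highest GLY heart for the endothelial list. Of 10 endothelial markers 3 fell in ARG, with means of -0.43 to 0.02 beside -0.20 to 0.14 in NTG. Of 10 smooth muscle and pericyte markers 1 fell and of 10 cardiac muscle markers 1 rose. Over all genes 6.11% had a probe set that rose and 9.78% one that fell, while each marker was read at 1 probe set. ARG replicate 4 was also the highest ARG heart for the endothelial, smooth muscle and cardiac muscle lists, at 0.02, 0.22 and 0.08. The part of these cell types in the collagen differences was not tested.

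As a check of the AC5 label, the mouse Adcy5 probe sets were read. The probe set 1439829_at differed by 0.41 ± 0.09 in AC5 against NTG and was not called (limma, adjusted p = 0.0813), and the other 3 were at 0.14, 0.06 and -0.13. The same probe set was called lower in ARG than in AC5 (-0.37, adjusted p = 0.0199) and lower in GLY than in AC5 (-0.54, adjusted p = 0.00444). The transgene is a human cDNA and the probes were made for the mouse gene, so these values do not settle how much transgene was expressed.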

How the data were processed

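Total RNA from 24 hearts was extracted with Trizol and checked on a Bioanalyzer, and biotin-labelled cRNA from 5 micrograms was put on Affymetrix mouse arrays, per the labels' protocols. RMA is named in the submitters' processing notes, with no version. The deposited values are read as linear ratios, which centre near 1 over the probe sets of NTG hearts, and what they were divided by is not stated in the labels. Ratios ran from 0.0636 to 34.8, and depth does not apply: the number of arrays limits the precision.

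Of 45101 probe sets, 64 Affymetrix controls were left out. Log2 of the deposited ratio was taken first, because the values are linear. One limma model (limma 3.58.1, R 4.3.3) took in the 24 arrays (1 mean per genotype, empirical Bayes), with Benjamini-Hochberg adjustment over the 45037 probe sets of a comparison and a threshold of 0.05. No filter was applied. The p-values measure the spread between these samples. The fit was tested on simulated data.

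Members and lists were chosen with earlier results of these data known. For genes with several probe sets, 1 was chosen by suffix and number. A collagen gene is named with its test where a probe set was called, and values in each group are given for those called in the comparisons with NTG or in ARG against GLY. Some further collagens are named, a choice made with values in view. Of each pathway list, up to 2 rises and 2 falls are named. Of 177 list genes, 167 were matched. Alternatives were quantile normalization, replicate number or set as a term, each set alone, array weights, fewer genotypes or arrays, and other uses of probe sets or classes. Tables used Python 3.11.15 with numpy 2.4.6 and pandas 2.3.3, and plots matplotlib 3.10.9.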

Additional observations from a re-analysis of the deposited data

Results flagged for a closer look

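In 72 groups of 6 hearts (18 named probe sets in 4 genotypes), a heart was marked where it stood apart from the other 5 by Dixon's test, which by chance marks about 1 in 20 groups, and 5 were marked. In AC5, the Col1a2 probe set 1450857_a_at had a ratio of 1.05 in replicate 6, above 0.796 to 0.867 in the others. In AC5 replicate 5, the Col4a4 probe set 1445328_at was at 0.494, below 0.704 to 0.771 in the others, and Col6a2 was at 0.613, below 0.809 to 0.928. In GLY, the Col5a2 probe set 1450625_at was at 1.52 in replicate 6, above 0.482 to 0.740, and Col8a2 was at 1.49 in replicate 2, above 1.11 to 1.19. None of the marked hearts was an ARG heart. The test uses the gap between the furthest heart and the next, so 2 hearts that are high together can hide each other. Replicates 4 and 5 were the 2 highest ARG hearts at 9 of the 10 genes that rose in ARG.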

How the results depend on the processing

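The number of collagen probe sets called was 16 for ARG, 1 for GLY and 0 for AC5 against NTG, then 6 for ARG against GLY, 17 for ARG against AC5 and 0 for GLY against AC5. Leaving out each heart in turn gave 13 to 19, 0 to 4, 0 to 0, 2 to 8, 16 to 20 and 0 to 0 in that order. Within replicates 1 to 3 the counts were 1 for ARG and 2 for GLY against NTG, 0 in ARG against GLY and 3 in ARG against AC5. Within replicates 4 to 6 they were 0 in GLY against NTG and 1 in ARG against GLY. Quantile normalization gave 0 in GLY against NTG, 0 in ARG against GLY and 1 in GLY against AC5. Array weights gave 2 in GLY against NTG and 1 in AC5 against NTG. With the 2 genotypes alone there were 2 for AC5 with NTG and 0 for ARG with GLY. Without ARG replicates 4 and 5, chosen after seeing the data, there were 10 for ARG and 2 for GLY against NTG, 0 in ARG against GLY and 1 in GLY against AC5. With 1 probe set per gene, fewer features were counted, with 10 for ARG and 0 for GLY against NTG, 3 in ARG against GLY and 11 in ARG against AC5. Shares of all probe sets are not set beside these counts. They thus do not show whether calls changed at collagens in particular. Class medians moved by more than the spread between hearts in 4 cases. These were the other collagens in ARG against NTG within replicates 1 to 3 (0.10), fibrillar collagens in ARG against GLY within replicates 4 to 6 (0.46) and without the 3 arrays of low weight (0.34), and basement membrane collagens in ARG against GLY within replicates 4 to 6 (0.23). The cause was not tested. No called gene changed direction under any alternative run.

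Replicate numbers were checked as a pairing. Of 36 pairs of hearts with the same number, 16 had a correlation of deviations over 0.1 (range -0.29 to 0.49, median 0.04). Of 24 hearts 9 correlated best with their own number. A correlation over 0.1 in every pair was asked for and not met, so the main fit used no pairing. That rule cannot tell whether some of the hearts were paired. With the replicate number as a block, the counts were 14 for ARG and 2 for GLY against NTG, 5 in ARG against GLY and 17 in ARG against AC5, with 0 in the others. Col6a2 was then not called in ARG against NTG (0.43, adjusted p = 0.06).

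Signal over background is unknown, which leaves the limit that it sets here unmeasured.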
